A study of Mus musculus with 2 samples.

Results

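The S100 family genes S100a1, S100a4, S100a6, S100a8, S100a9, S100a10, S100a11 and S100a13 are described here in 2 cultures of immortalised mouse bone marrow cells. The 8 genes were taken by their gene name on the array, each had 1 probe printed as a single spot, and all 8 were measured on both arrays, out of 16570 genes measured in all. The cells, called M/E cells, come from mouse bone marrow and were made to grow without limit by MLL/ENL, a fusion gene of leukaemia; their genotype is Mef2c del/-, and per the labels they make no functional Mef2c. One culture carried MYs-pMef2cASR, a vector for MEF2C-ASR, a form of Mef2c whose mutation in the part that binds histone deacetylases leaves it constantly active. The other carried the empty vector MYs-iPAC. Both cultures were selected with puromycin and grown with IL3, GM-CSF and IL6 at 10 ng/ml each, SCF at 100 ng/ml and 10% fetal calf serum. They were harvested 6, 24 and 48 h after seeding, and 1 RNA pool was made of the 3 harvests of each culture. The labels do not say whether the cultures derive from 1 clone. The question put to the arrays is how the RNA of cells without functional Mef2c changes once an active form is supplied.

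Each group was 1 pooled RNA on 1 array, so no difference has a replicate check, no test was run, and "higher" and "lower" describe these 2 arrays. Differences are on the log2 scale, MEF2C-ASR minus empty vector, and those of 2-fold or more, which is 1 on that scale, are singled out. On the MEF2C-ASR array 67.5% of spots were well above background, against 60.1% on the empty vector array. The family was chosen by its signal differences in this very comparison, so those differences are given as a description and support nothing. Fewer cells that make a transcript and less of it per cell cannot be told apart in such bulk RNA. All 10 listed markers of these progenitors, among them Ptprc, Kit, Itgam, Hoxa9 and Meis1, were measured on both arrays. The dimmest of them were Flt3 (80.9 with MEF2C-ASR, 76.0 with the empty vector) and Cd34 (232 and 222). The log2 difference lay above 0 for 8 of the 10, and below 0 for Hoxa10 (-0.64) and Hoxa9 (-0.09). Of these 10, the granule enzyme gene Mpo was past 2-fold, at signals of 143027 with MEF2C-ASR and 68289 with the empty vector (2.15-fold higher, and a log2 difference of 0.98 with spike-in scaling), and the median was 0.33. Mef2c itself had a signal of 1969 on the MEF2C-ASR array and 795 on the empty vector array, a log2 difference of 1.34, which was 0.68 when a dim second probe was kept. Hprt had signals of 56305 and 56850 on the same arrays (0.02).

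S100 proteins are small calcium-binding proteins that carry a pair of EF-hand motifs, mostly work as dimers, and on binding calcium expose a surface that docks onto target proteins. They act inside cells on the cytoskeleton, membranes and annexins, and several leave the cell without a signal peptide and act as alarm signals on receptors such as RAGE and TLR4. Neutrophils and monocytes are known for their high content of calprotectin, the heterodimer of S100a8 and S100a9. Most S100 genes of the mouse lie in a cluster on chromosome 3.

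With MEF2C-ASR, 3 of the 8 genes were at least 2-fold higher, namely S100a6, S100a4 and S100a8, and 0 were at least 2-fold lower. The other 5, S100a9, S100a10, S100a11, S100a13 and S100a1, differed by less than 1.5-fold. Of all 16570 genes, 1.74% were at least 2-fold higher, 1.91% at least 2-fold lower and 90.4% within 1.5-fold. These are 289 higher and 316 lower genes, and with scaling by spike-in spots 223 were higher and 421 lower. The median log2 difference of the 8 was 0.49, against -0.03 for all genes. For 7 of the 8 the difference lay above 0, as it did for 44.8% of all genes.

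**Figure D1:**
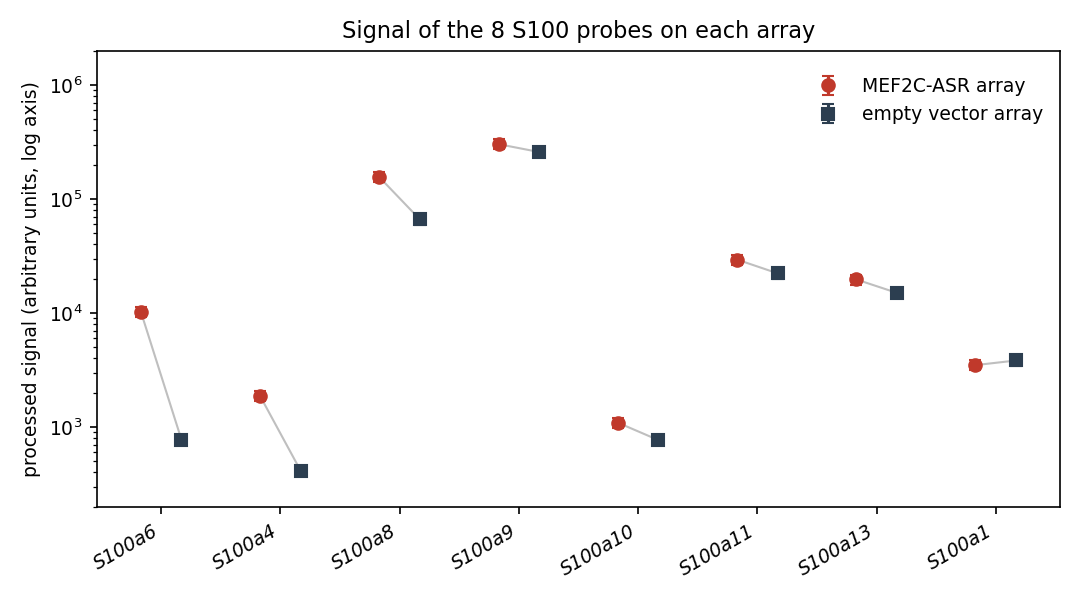
Processed signal (arbitrary units, log axis) of the 8 S100 probes, with the MEF2C-ASR array as circles left of the empty vector array as squares, and bars for the error that the scanner software gave each spot. The steepest lines are those of S100a6 (10202 against 772) and S100a4 (1865 against 412); only S100a1 among the 8 lies lower with MEF2C-ASR, and heights of different probes are not comparable.

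The promoter windows of the 3 genes past 2-fold are shown with that of S100a9, the partner of S100a8, which was within 2-fold. They are RefSeq sequences of the build GRCm38.p6, from 250 bases before to 50 after the annotated start, read 5′ to 3′ on the strand of the gene. Capitals mark matches to the motifs described after them. The window of S100a6 is chr3:90612644-90612943 (+), that of S100a4 chr3:90603520-90603819 (+), that of S100a8 chr3:90668821-90669120 (+) and that of S100a9 chr3:90695672-90695971 (-).
S100a6: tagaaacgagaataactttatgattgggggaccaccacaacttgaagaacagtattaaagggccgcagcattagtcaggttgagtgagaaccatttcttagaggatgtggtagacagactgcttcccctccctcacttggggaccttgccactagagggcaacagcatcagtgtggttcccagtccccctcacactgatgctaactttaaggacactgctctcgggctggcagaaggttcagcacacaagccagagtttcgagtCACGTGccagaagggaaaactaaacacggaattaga
S100a4: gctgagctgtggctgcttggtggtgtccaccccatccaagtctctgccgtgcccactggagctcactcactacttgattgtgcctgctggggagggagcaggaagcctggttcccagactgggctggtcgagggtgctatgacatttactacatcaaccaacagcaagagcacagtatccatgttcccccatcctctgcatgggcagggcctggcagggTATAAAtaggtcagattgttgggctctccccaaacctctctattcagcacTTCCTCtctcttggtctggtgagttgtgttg
S100a8: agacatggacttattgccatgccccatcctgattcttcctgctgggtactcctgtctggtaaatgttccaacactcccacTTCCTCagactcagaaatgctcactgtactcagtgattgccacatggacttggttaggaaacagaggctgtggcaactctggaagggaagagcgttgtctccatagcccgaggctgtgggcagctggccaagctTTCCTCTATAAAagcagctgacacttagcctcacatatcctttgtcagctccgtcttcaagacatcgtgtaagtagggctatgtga
S100a9: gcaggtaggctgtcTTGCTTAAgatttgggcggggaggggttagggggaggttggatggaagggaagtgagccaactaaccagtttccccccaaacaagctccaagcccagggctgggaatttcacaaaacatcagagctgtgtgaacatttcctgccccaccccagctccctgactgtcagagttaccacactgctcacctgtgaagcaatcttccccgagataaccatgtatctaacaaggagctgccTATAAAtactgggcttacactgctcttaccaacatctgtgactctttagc

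The motifs were searched on both strands in the 7 members with a window in the RefSeq table, and in all 32851 windows of that table. TATAAA, the TATA box, was found in S100a4, S100a8 and S100a9, and in 13.6% of all windows. It began 31 bases before the annotated start of S100a4 and 30 before that of S100a8, and at the annotated start base of S100a9. GAGGAA, which holds the core of PU.1 sites, was found in S100a4, S100a8 and S100a11 (28.3% of all windows), and 1 match in S100a8 lies directly beside the TATA box. TTGCNNAA, a form of the C/EBP motif, was found in S100a9 (10.8%). CACGTG, an E-box, was found in S100a6 and S100a11 (7.15%), and TGANTCA, the AP-1 motif, in S100a11 (7.81%). The MEF2 motif was found in 0 of the 7 windows and in 3.19% of all windows. A match is a string of letters and does not show binding, and a missing match covers these 300 bases only.

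S100a6 (calcyclin), which binds calcyclin-binding protein and annexin A11, had the largest difference of the 8. Its signal was 10202 ± 1020 on the MEF2C-ASR array and 772 ± 77.7 on the empty vector array, where ± is the error that the scanner software assigned to the spot. That is 13.5-fold higher, a log2 difference of 3.76, and 1 of the 16570 genes had a larger difference upward. The error of a log2 difference was 0.20 to 0.21 for each of the 8 by the software's error model, and 0.13 from probes printed 10 times. Both errors are those of spots, and say nothing of how cultures, pools or labellings vary. The probe lies at chr3:90744440-90744499 (the sources used here do not name its genome build).

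S100a4 (metastasin), which binds non-muscle myosin and is tied to cell motility, was the next. Its signal was 1865 with MEF2C-ASR and 412 with the empty vector, 4.64-fold higher (log2 difference 2.21). Of all genes, 23 had a larger difference upward. Its probe, at chr3:90736122-90736182 in the build of the files, lies 8.32 kb from that of S100a6, from start to start.

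S100a8 and S100a9, the subunits of calprotectin, which sequesters zinc and manganese and signals through TLR4 and RAGE, are given side by side. The signal of S100a8 was 155457 with MEF2C-ASR and 66154 with the empty vector, 2.41-fold higher (log2 difference 1.27, with 168 genes higher still). The signal of S100a9 was 302976 with MEF2C-ASR and 258469 with the empty vector, 1.20-fold higher (0.27). The difference of S100a8 exceeded that of S100a9 by 1.00 on the log2 scale, against an error of 0.29 by the error model and 0.18 from repeated spots. Neither spot was saturated. The raw mean signals of S100a9, 305588 with MEF2C-ASR and 269190 with the empty vector, lay below the scanner's saturation values of 574069 and 573701. These limits are those of the scanner, and whether so bright a probe still follows the RNA amount in proportion was not tested. The spot of S100a9 on the MEF2C-ASR array carried a flag for an unusual local background, so this gene has no value when such spots are left out. Their probes lie at chr3:90800058-90800117 and chr3:90822865-90822924 in the build of the files.

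**Figure D2:**
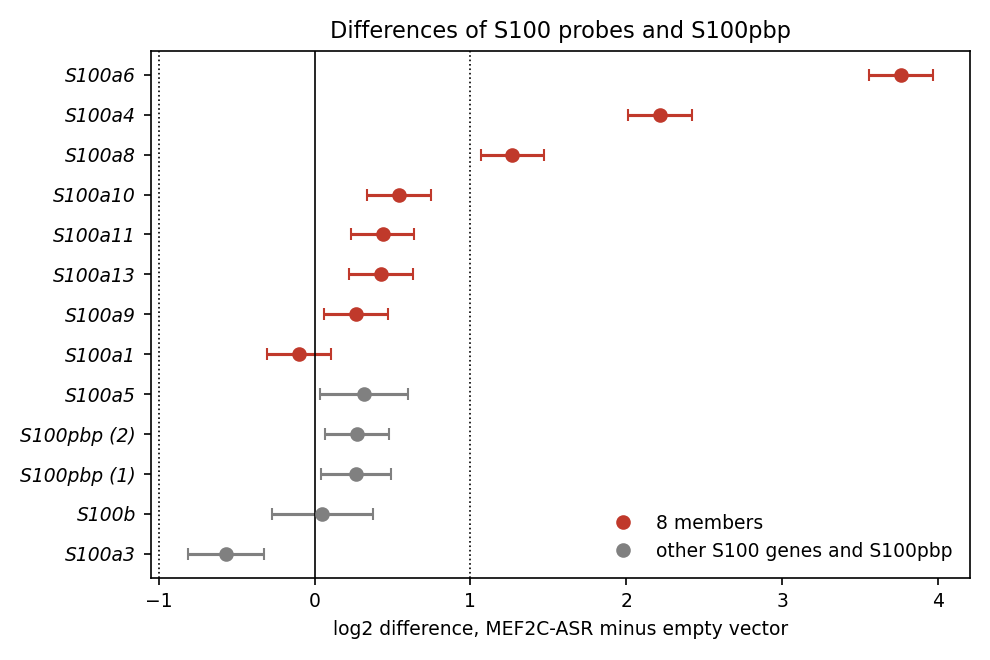
Log2 difference (MEF2C-ASR minus empty vector) of the 8 members in red and of S100a3, S100a5, S100b and the 2 probes of S100pbp, which is no S100 gene itself, in grey, with bars for the software's error model and dotted lines at 2-fold. S100a6, S100a4 and S100a8 lie above 1, and the other points between -0.57 and 0.54.

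S100a10 and S100a11 bind annexins at membranes. S100a10 (p11), which pairs with annexin A2, needs no calcium to do so and binds plasminogen at the cell surface, had signals of 1091 with MEF2C-ASR and 768 with the empty vector, 1.46-fold higher (log2 difference 0.54). S100a11 (calgizzarin), a partner of annexin A1 in membrane repair, had signals of 29430 with MEF2C-ASR and 22294 with the empty vector, 1.35-fold higher (0.44). These differences are larger than the error of the spots and below 2-fold, and they differ from each other by 0.11, less than the error of 0.29. The RefSeq table also lists a pseudogene S100a11-ps, so the S100a11 probe may not measure that gene alone.

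S100a13, which takes part in the release of FGF1 and interleukin 1 alpha from cells, had signals of 19702 with MEF2C-ASR and 15031 with the empty vector, 1.34-fold higher (log2 difference 0.43). S100a1, best known for its action on calcium cycling in heart muscle, had signals of 3490 with MEF2C-ASR and 3832 with the empty vector, a log2 difference of -0.10, within the error of the spots. These genes lie head to head, and their promoter windows share 204 bases. Their differences lay 0.53 apart, against an error of 0.29 by the error model.

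**Figure D3:**
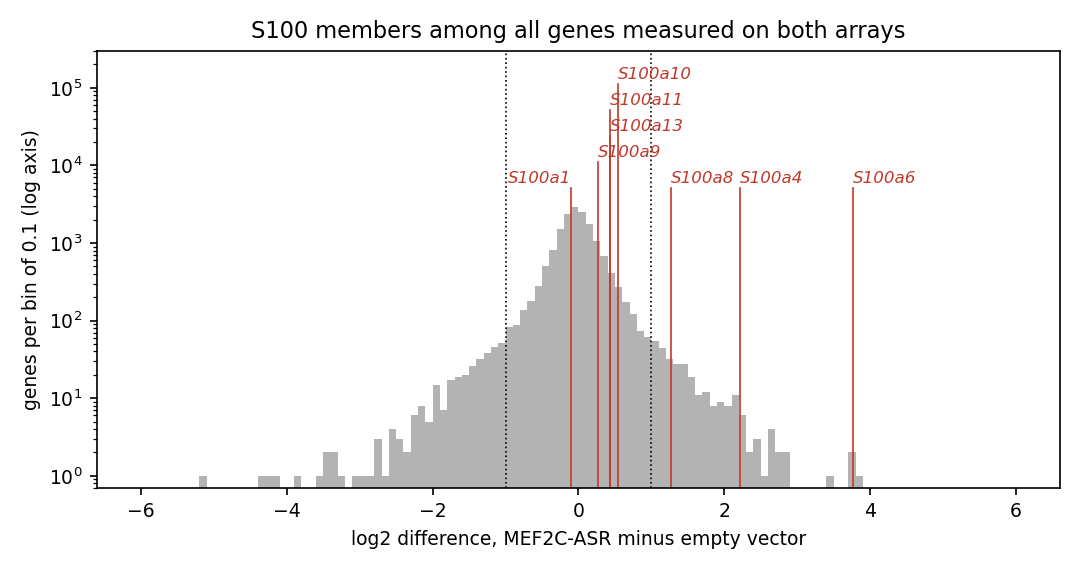
Number of genes (log axis) in bins of 0.1 of the log2 difference between the arrays, MEF2C-ASR minus empty vector, over the 16570 genes measured on both, with red lines at the 8 members and dotted lines at 2-fold. S100a6 stands at the far right of the distribution. Of the 5 members below 2-fold, S100a10, S100a11 and S100a13 stand right of most genes, with 5.26%, 7.44% and 7.68% of genes higher still. For S100a9 that share is 14.3% and for S100a1 61.9%.

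Along chromosome 3, in the order of the probes, the log2 differences were -0.10 for S100a1, 0.43 for S100a13, 2.21 for S100a4, 3.76 for S100a6, 1.27 for S100a8, 0.27 for S100a9, 0.44 for S100a11 and 0.54 for S100a10. The members past 2-fold thus follow one another. The flanking distances, from probe start to probe start, were 88.996 kb (S100a13 to S100a4) and 22.8 kb (S100a8 to S100a9). The other S100 genes within that stretch were dim. S100a5, which lies between S100a4 and S100a6, had dim signals of 83.4 with MEF2C-ASR and 68.7 with the empty vector (log2 difference 0.32). S100a3, a gene of the hair cuticle on the other side of S100a4, had signals of 72.2 with MEF2C-ASR and 110 with the empty vector (-0.57). The probe of S100a7a, between S100a6 and S100a8, stayed near background on both arrays.

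The protein-coding genes between the first and the last member are mostly small proline-rich and late cornified envelope genes of the skin barrier. Of 62 such neighbours, S100a3 and S100a5 among them, 14 were measured, 0 were at least 2-fold higher and 1 was at least 2-fold lower, with a median of -0.12. The one lower was Crct1, a cornified envelope gene (-1.22), which was dim on both arrays and stood at -0.54 with normexp background correction.

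Of 11 further genes on the list of other S100 family genes, 9 had a probe and 4 were measured on both arrays, with 0 past 2-fold in either direction. These were S100a3 and S100a5, the glial S100b (0.05) and S100pbp, which encodes no S100 protein but is named for binding one (0.27, with both of its probes alike). S100a14 was well above background on the MEF2C-ASR array alone, at a signal of 37.1 against 22.9 on the empty vector array, which is too dim there for a bound. S100a7a, S100a7l2, S100a16 and S100g, the intestinal calbindin, were not well above background on either array. S100a2 and S100z were not analysed here.

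Known receptors of secreted S100 proteins were listed next. Of 14 listed, 12 were measured, 1 was at least 2-fold higher and 0 lower, with a median log2 difference of 0.11, against -0.03 for all genes. Scaled by the spike-in spots the receptors had a median of -0.02 and all genes -0.16, and with brighter probes alone the receptors had 0.38 and all genes -0.02. The one past 2-fold was Il10ra, a chain of the interleukin 10 receptor (signal 1338 with MEF2C-ASR, 600.1 with the empty vector, log2 difference 1.19). The calprotectin receptor Tlr4 had signals of 3577 with MEF2C-ASR and 2314 with the empty vector (0.66). The RAGE gene Ager was dim, with signals of 47.1 and 45.9 on the same arrays (0.08). The scavenger receptor Cd36, well above background on the empty vector array alone, was at least 2.12-fold lower with MEF2C-ASR, a bound set by dim signals.

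Annexins and other intracellular targets of S100 proteins differed by less than 2-fold throughout the measured list, as means over the probes of a gene. Of 33 listed, 26 were measured and 0 passed 2-fold in either direction, with a median of 0.12 (-0.01 with spike-in scaling, where all genes stood at -0.16). The largest difference upward was that of Anxa1, the partner of S100a11, with signals of 4641 with MEF2C-ASR and 2495 with the empty vector (log2 difference 0.93). Anxa11, a partner of S100a6, had signals of 2424 with MEF2C-ASR and 1481 with the empty vector (0.75). Beside them stood Anxa2, the partner of S100a10, at 0.39, and the S100a4 target Myh9, the heavy chain of non-muscle myosin, at 0.25. Cacybp, the calcyclin-binding protein, stood at -0.21. Stk38 stood at -0.71, the mean of 2 probes that disagreed (-1.51 and 0.09).

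The NADPH oxidase of phagocytes, to which calprotectin delivers arachidonic acid, had 7 of 7 listed subunits measured. One was at least 2-fold higher, Cybb, its catalytic subunit (log2 difference 1.01, signals of 1527 with MEF2C-ASR and 775 with the empty vector), which was under 2-fold after normexp (0.86) or when scaled by spike-in spots (0.88). The median was 0.20 and 0 were lower. Of 12 listed transcription factors known to act on S100a8 or S100a9, 11 were measured and 0 passed 2-fold, with a median of 0.18. The largest differences among them were those of Hif1a (0.48) and Spi1, the gene of PU.1 (0.39), and Cebpb stood at 0.25. Other EF-hand proteins, such as calmodulins and calpains, had 25 of 30 measured and 0 past 2-fold, with a median of 0.13. Rcn1 (0.81) and Capn2 (0.53) differed most among them, and Capns2, a calpain subunit seen on the MEF2C-ASR array alone, was at least 5.75-fold higher.

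**Figure D4:**
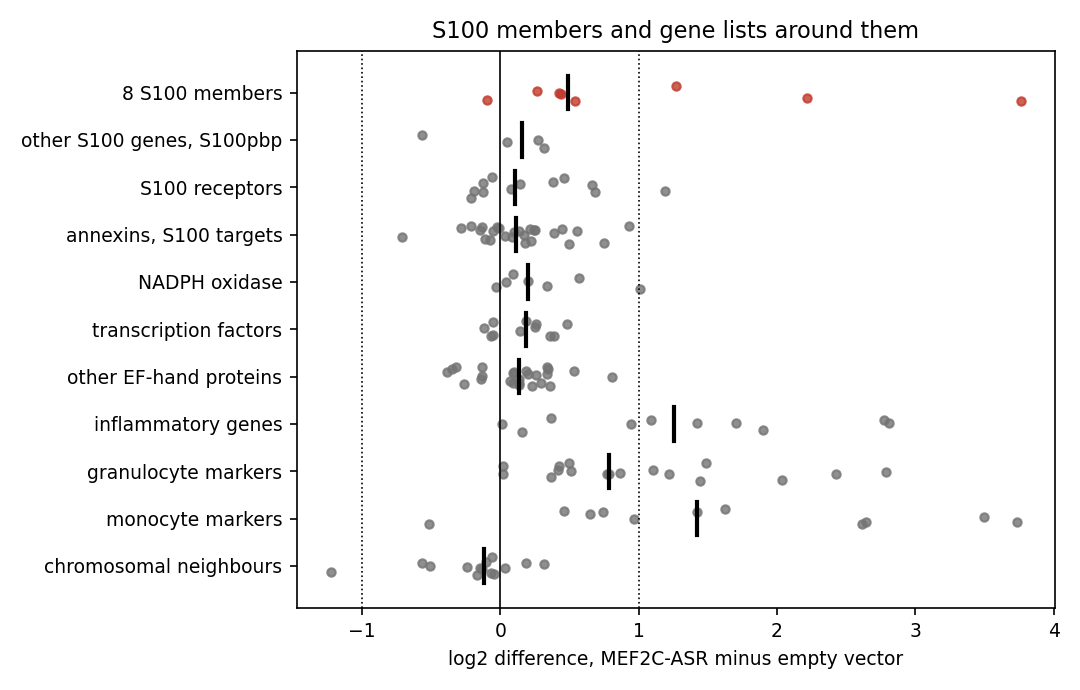
Log2 difference (MEF2C-ASR minus empty vector) of every measured gene of the 8 S100 members in red and of 10 lists in grey, with a black bar at each median and dotted lines at 2-fold. Medians are 1.26 for inflammatory genes, 0.78 for granulocyte markers and 1.42 for monocyte markers, and between -0.12 and 0.20 for the other lists, against 0.49 for the 8 members.

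Inflammatory genes that are known to answer extracellular calprotectin are the next list. Of 14 listed, 10 were measured and 6 were at least 2-fold higher, 0 lower, with a median of 1.26. The chemokine Ccl2 (log2 difference 2.81, and 1.96 with normexp), the cytokine Il1b (2.77), the chemokine Ccl4 (1.90) and Saa3, an acute phase protein (1.70), differed most. Cxcl2 was at least 2.53-fold higher by a bound, and Nlrp3 (0.01) and Myd88 (0.16) were within 2-fold. The list was written with earlier results of these arrays known.

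Some markers of granulocytes and monocytes, cells rich in calprotectin, were past 2-fold and higher, like S100a8, and others were not. Of 18 granulocyte markers, 17 were measured, 7 were at least 2-fold higher and 0 lower, with a median of 0.78. Their summed signal was 498587 with MEF2C-ASR and 374188 with the empty vector. Most of that sum came from Ctsg (204890 with MEF2C-ASR, 207062 with the empty vector) and Mpo (143027 and 68289), so it does not describe the list. The largest differences were those of Fpr1 (2.79), Mmp8 (2.42), Il1r2 (2.04) and Retnlg (1.49), and the other 10 were within 2-fold, among them Cd177 (0.02) and Ctsg (0.02). Of 14 monocyte and macrophage markers, 11 were measured, 6 were at least 2-fold higher and 0 lower, with a median of 1.42. Their summed signals were 101624 with MEF2C-ASR and 56245 with the empty vector. Most of these sums came from Lyz2 (80621 with MEF2C-ASR, 48584 with the empty vector), which was within 2-fold (0.97). Clec4n (3.73), Trem2 (3.50), Msr1 (2.64, between 1.67 and 3.64 over the settings tried) and Ctss (2.61) led, Fcgr1 stood at -0.51, and on neither array was Mrc1 well above background. The part of such cells in the differences of the S100 genes was not tested.

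Markers of other lineages follow, most of them dim. Of 15 mast cell, basophil and eosinophil markers 9 were measured and 0 passed 2-fold, the largest being Tpsb2 (-0.85) and Gata2 (-0.26). Of 10 erythroid markers 7 were measured and 0 passed 2-fold, the largest being Klf1 (-0.96, and -1.09 with spike-in scaling) and Tfrc (-0.36). Pf4 was higher among 5 measured platelet markers (1.24) and Cd79a among 5 B lineage markers (1.15, and 0.61 with normexp). Zap70 was lower among 4 T and NK markers (-1.65, and -0.95 with normexp) and Pdgfrb among 4 stromal and endothelial markers (-1.81, and -0.75 with normexp). A further 4 of these markers were well above background on the empty vector array alone and lower with MEF2C-ASR, all but the T lineage factor Gata3 by a bound. Lum, a matrix proteoglycan of stromal cells, had signals of 18.4 with MEF2C-ASR and 225 with the empty vector, at least 10.98-fold lower. The other signals were dim. Mgp, also of stroma, was at least 3.28-fold lower (20.0 with MEF2C-ASR, 67.3 with the empty vector). The eosinophil gene Prg3 was at least 2.54-fold lower (19.8 and 52.1). Gata3 was 2.31-fold lower (20.9 and 49.5), which is the plain difference between its signals and not a bound. Its signal with MEF2C-ASR was not well above background. The part of such cells in the S100 values was not tested either. The defining markers Ebf1, Cd8a, Ncr1, Pdgfra and Cdh5 were not well above background on either array.

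The genes with a log2 difference nearest to that of S100a6, among protein-coding genes at or above the 25th percentile of level, were Clec4n (a gap of 0.03), the fungal recognition receptor dectin-2, Thy1 (0.10), a surface glycoprotein, and Trem2 (0.26), a macrophage receptor that senses lipids. Thy1 had signals of 4095 with MEF2C-ASR and 290 with the empty vector. With 2 arrays this likeness rests on a single difference.

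**Figure D5:**
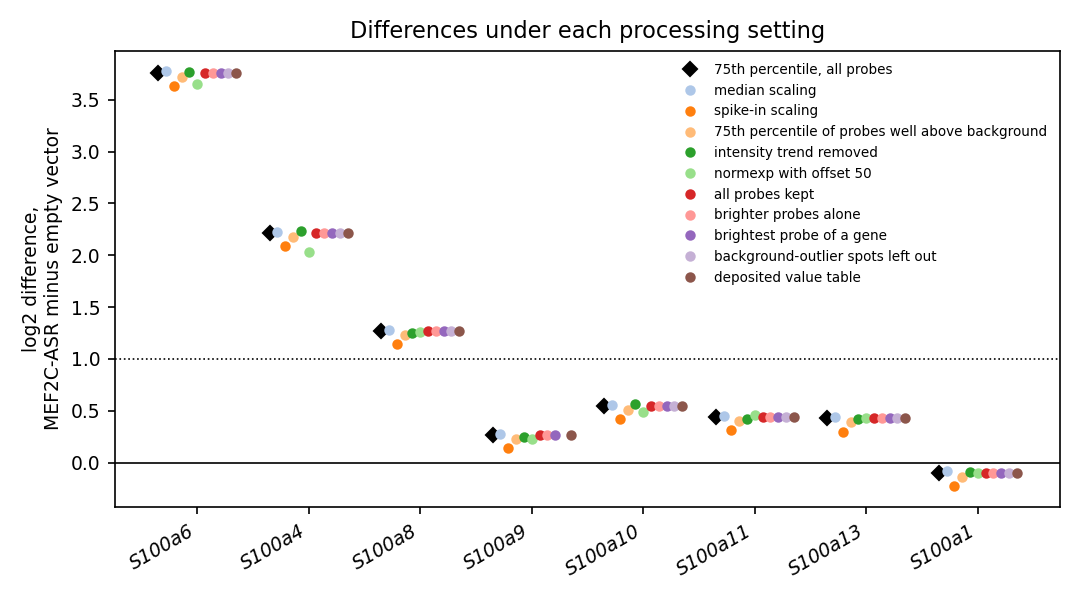
Log2 difference (MEF2C-ASR minus empty vector) of each member under 11 processing settings, with the setting used in the text as a black diamond and a dotted line at 2-fold. S100a6 ranges between 3.63 and 3.77, S100a4 between 2.04 and 2.23 and S100a8 between 1.14 and 1.28, and the other 5 members stay below 2-fold in each setting that gave them a value. Settings that filter or summarise probes could not move a member, since each has a single probe.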

How the data were processed

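RNA of 2 cultures, pooled from 3 harvests each per the labels' protocols, was labelled with Cy3 and hybridised to 1 Agilent whole mouse genome array per culture. The deposited values are linear spot intensity values, made with Feature Extraction 9.5.1.1 per the file headers, which subtracted the background with spatial and multiplicative detrending and replaced the dimmest signals by surrogates. The headers place the arrays on 1 slide. The deposited value table held the same intensity values.

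The log2 of the processed signal was taken, less the 75th percentile of the array over its 43379 non-control spots (signal 1240 with MEF2C-ASR, 1272 with the empty vector). Control spots and spots flagged as outliers were left out, and spots of a probe were averaged. Measured probes were those flagged well above background, without saturation, on each of the arrays; 0 spots were saturated. A gene's value was the mean of its measured probes, and it counted as past 2-fold only where all of them had the same sign. Of 41174 probes, 22951 got their name through an accession, 6659 through a symbol and 3109 through a former symbol in the RefSeq table of GRCm38.p6. The remaining 8455 kept the name on the array, without a match in that table. Such a name, where measured, also counted as a gene among the 16570. A gene seen on 1 array was given a bound, its level there less the higher of its level on the other array and the lowest level well above background there, which was -5.96 with MEF2C-ASR and -5.05 with the empty vector. Spotting error came from 137 probes printed 10 times and well above background in every spot. Python 3.11.15, R 4.3.3 and limma 3.58.1 were used. The 2-fold rule was tested on simulated data, in which both arrays were made from the empty vector array. The bounds, normexp and the motif search were not part of that test.

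The members and gene lists were chosen with earlier results of these data known. The text names all 8 members, every listed other S100 gene, Mef2c, Hprt and, in each list, up to 4 measured members past 2-fold, or else the 2 with the largest difference. Further list members, such as partners, bounds and contrasting genes, were added after their values were seen. Alternatives were other scalings, normexp with offset 50, other probe filters and summaries, and the deposited value table. For normexp, local backgrounds flagged as outliers were set to the array's median, because 1 extreme value broke the fit, a choice made after seeing the data. With 1 array a group, precision is limited by the number of arrays.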

Additional observations from a re-analysis of the deposited data

How the results depend on the processing

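No paired analysis was possible because each group is 1 array. In all 10 alternatives S100a6, S100a4 and S100a8 were at least 2-fold higher, the other measured members were within 2-fold, and no member changed sign. Not all of these could have come out otherwise. Each member has a single probe on a single spot, so the probe filters and summaries could only keep its value or drop it. The deposited value table held the same values. Only the other scalings, the removal of an intensity trend and normexp could move a member. S100a9 has no value without background-outlier spots. S100a4 moved by more than the spotting error with normexp, to 2.04. Spike-in scaling gave a median of -0.16 for all genes, in place of -0.03, and lowered each member by the same shift, S100a8 to 1.14 and S100a9 to 0.14. Counts over all genes moved more. Spike-in scaling gave 223 genes higher and 421 lower, which turns a near even split into one with more lower genes. Normexp gave 164 higher and 120 lower, in place of 289 and 316. With all probes kept 790 were higher and 980 lower of 27620, and with brighter probes alone 192 higher and 99 lower of 13583. Of other named genes, Cybb and Mpo (0.98) were under 2-fold with spike-in scaling, and Cybb also with the percentile taken over the well-above-background probes (0.97). With all probes kept the median of all genes was -0.12, that of the other S100 genes -0.57 and that of the receptors -0.02. The S100 list then includes S100a7a, S100a7l2, S100a16 and S100g, which were not well above background on either array. The signals of S100a7a, S100a7l2 and S100g were surrogates on both arrays, so that median does not show lower RNA. With brighter probes alone the median of the receptors was 0.38. No alternative adds a culture, so none gives the variation between cultures.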
